A study of Mus musculus with 6 samples.

Results

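The genes described here are 10 glycolysis and hypoxia-responsive genes, followed across RNA sequencing libraries of mouse embryonic stem cells (mESCs). They are the glucose transporters *Slc2a1* and *Slc2a3*, the glycolytic enzymes *Hk2*, *Pfkp*, *Aldoa*, *Pgk1*, *Eno1* and *Ldha*, the pyruvate dehydrogenase kinase *Pdk1* and the mitochondrial protein gene *Bnip3*. They were chosen by gene symbol as members of a known pathway, with earlier results of these data known. The symbols matched 11 of the 55385 gene rows, because *Aldoa* names 2 neighbouring gene models on chromosome 7. The main *Aldoa* model (ENSMUSG00000030695) stands for the gene throughout. The second model (ENSMUSG00000114515) held only 26 to 50 counts per library. All 11 rows passed the filter on low counts.

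Glycolysis splits glucose into pyruvate in the cytosol, and cells that ferment turn the pyruvate into lactate. Under low oxygen the transcription factor HIF-1 is stabilised and raises the transcription of glucose transporters and of glycolytic enzymes. It also raises that of *Pdk1*, whose product holds pyruvate back from the citric acid cycle, and of *Bnip3*, whose product marks mitochondria for removal. Pluripotent cells in culture are known for a high rate of glycolysis also when oxygen is ample.

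The study deleted Polycomb loop anchors, the regions at the feet of long-range chromatin contacts, and asked what their loss does to gene expression. For the *Wnt6* anchor on chromosome 1 it sequenced wild-type (WT) mESCs, mESCs with a *Wnt6* heterozygous deletion and mESCs with a *Wnt6* homozygous deletion. All the cells derive from one parental hybrid line, G4, and all were grown with leukemia inhibitory factor on CD1 feeder cells, with no oxygen or glucose treatment named. The deletions were made with CRISPR-Cas9 and screened in individual clones, and neither the labels nor the methods say how many clones the RNA came from, so a clone and its genotype cannot be told apart. The labels give 2 libraries of each genotype, and the methods state biological triplicates. Neither says whether the 2 labeled libraries came from separate cultures or clones, so the p-values measure the spread between these libraries, which may be technical.

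The 6 libraries held 23813912 to 28964706 counts, and replicates differed by more than sampling noise. *Wnt6* is among the genes included in the deletion. It had 11 and 13 counts in WT, 6 and 4 in the heterozygous and 0 and 0 in the homozygous libraries, as labeled. A list of 28 fibroblast markers, none of them at 0 in all libraries, reached a summed level of 4490 and 4388 CPM (counts scaled to library size with TMM factors) in WT, of 3350 and 3345 in heterozygous and of 2441 and 2429 in homozygous libraries. Reads from mESCs and from feeder cells are counted together, and in such bulk RNA fewer cells of a type and less RNA per cell cannot be told apart. The sum of 10 pluripotency markers was 3267 and 3329 CPM in WT, 3020 and 2968 in heterozygous and 3462 and 3272 CPM in homozygous libraries, lowest in the heterozygous ones. The median gene on chromosome 8 differed by 0.39 (log2) between homozygous and WT cells and by -0.12 between heterozygous and WT cells, and none of the 10 genes lies on that chromosome. The part of feeder RNA, of the pluripotency marker level or of chromosome 8 in the results below was not tested.

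The core of the hypoxia response element, the sequence that HIF-1 binds, is ACGTG or GCGTG. Promoter windows of 300 bases (250 before to 50 after the start of transcription) were available from RefSeq (GRCm38.p6) for 9 of the 10 genes, all but *Slc2a3*. ACGTG on either strand was found in 6 of them, *Slc2a1*, *Hk2*, *Aldoa*, *Pgk1*, *Ldha* and *Bnip3*, and in 21.8% of the 27025 genes with a window. GCGTG was found in 6 of them, and in 35.2% of all genes. CACGTG, the E-box, which contains ACGTG on both strands, was found in *Ldha* and *Bnip3*, and in 8.09% of all genes. The stretches that hold ACGTG are shown for 3 of the genes whose levels were lower in homozygous than in heterozygous cells, and for *Ldha*, whose level did not pass the test in any comparison. That of *Slc2a1*, which was also lower in homozygous than in heterozygous cells, holds 33 exon bases and is not shown, and that of *Hk2* is long. Capitals mark ACGTG, its reverse complement CACGT, or both where they overlap as CACGTG.
Aldoa, chr7:126799346-126799410, minus strand, in an intron of the longer gene model: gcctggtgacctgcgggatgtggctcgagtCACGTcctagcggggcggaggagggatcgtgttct
Pgk1, chrX:106186920-106187003, plus strand, upstream of the gene: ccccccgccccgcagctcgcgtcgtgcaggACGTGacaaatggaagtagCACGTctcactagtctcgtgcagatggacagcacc
Bnip3, chr7:138909579-138909644, minus strand, upstream of the gene: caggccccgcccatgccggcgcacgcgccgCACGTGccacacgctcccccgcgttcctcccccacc
Ldha, chr7:46845629-46845803, plus strand, in an intron of the longer gene model: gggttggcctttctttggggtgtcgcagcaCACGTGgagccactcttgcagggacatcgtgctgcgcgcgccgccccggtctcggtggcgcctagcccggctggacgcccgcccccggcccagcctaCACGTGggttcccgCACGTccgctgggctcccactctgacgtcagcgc
The *Ldha* stretch of 175 bases held 5 matches to ACGTG when each strand was counted. Those of *Aldoa* (65 bases), *Pgk1* (84 bases) and *Bnip3* (66 bases) held 1, 2 and 2. The lengths differ, and each CACGTG counts on both strands. GCGTG is not marked. A match describes the letters only and is not evidence of binding.

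In WT cells the genes spanned a wide range of transcript levels. Levels between genes were compared as FPKM, here the CPM of a gene divided by the length of its merged exons in kilobases. *Aldoa*, which splits fructose-1,6-bisphosphate, was highest at 482 ± 9.77 FPKM (SD, n = 2). *Ldha*, which turns pyruvate into lactate, was at 421 ± 15.2, and *Eno1*, which makes phosphoenolpyruvate, was at 398 ± 0.133 (SD, n = 2). These 3 enzymes ranked at or above the 99.5 percentile of the 16951 genes tested.

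*Pgk1*, which forms the first ATP of the pathway, followed at 144 ± 8.65 FPKM. The transporters *Slc2a1* and *Slc2a3* were at 77.5 ± 1.39 and 58.7 ± 0.202 FPKM, and *Hk2*, which traps glucose as its phosphate, was at 46.5 ± 0.918 (SD, n = 2). *Pdk1* was at 21.7 ± 0.262, *Bnip3* at 8.26 ± 0.476 and *Pfkp*, a phosphofructokinase subunit, at 5.80 ± 0.370 FPKM (SD, n = 2). No neighbours in this order overlapped between the 2 WT libraries. The order depended on the length used only at the top. With the longest transcript as length, *Eno1* was first at 1055, followed by *Aldoa* at 906 and *Ldha* at 768 FPKM.

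In the homozygous libraries *Ldha* (438 and 409 FPKM) and *Aldoa* (429 and 406 FPKM) overlapped and changed places in the order of means. The other 8 genes held their WT rank in both deletions. Reads of *Eno1* can also fit its near-identical retrocopy *Eno1b*, which held 4451 to 5850 counts per library, so the level of *Eno1* is uncertain by the way such reads were assigned. Retrocopies of *Aldoa*, *Pgk1* and *Ldha* whose symbol carries the name of the gene held at most 16 counts. Copies under other names were not looked at.

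**Figure D1:**
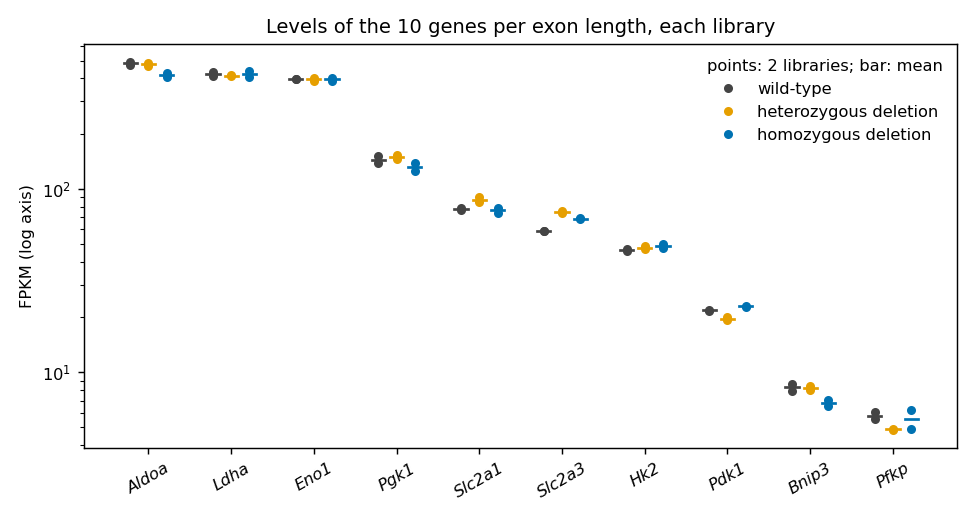
FPKM (log axis) of the 10 genes in each library, ordered by the WT mean; points are the 2 libraries of a genotype and bars their mean. *Aldoa*, *Ldha* and *Eno1* lie near 400 FPKM or above in WT, *Bnip3* and *Pfkp* below 10.

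All differences between genotypes were small. In heterozygous against WT cells 3 of the 10 genes passed the test (edgeR quasi-likelihood, Benjamini-Hochberg adjusted p below 0.05), where 5.14% of all tested genes did and 7.53% of those with a mean of at least 10 CPM. *Slc2a1* and *Slc2a3* rose, as did 2.23% of all tested genes, and *Pdk1* fell, as did 2.91%. In homozygous against WT cells 3 of 10 passed, against 21.4% of all tested genes and 28.9% of those with at least 10 CPM. Here *Slc2a3* rose and *Aldoa* and *Bnip3* fell, beside 10.9% of all genes that rose and 10.5% that fell. In homozygous against WT cells the share of the 10 genes lies near that of the other genes at such levels.

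The direct comparison of homozygous with heterozygous cells had 6 of 10 genes past the test, against 25.8% of all tested genes and 35.6% of those with at least 10 CPM. *Pdk1* rose, while *Slc2a1*, *Slc2a3*, *Aldoa*, *Pgk1* and *Bnip3* fell, while 12.9% of all genes went in each direction. None of the 10 genes reached an absolute log2 fold change of 1 in any comparison. By comparison, 0.165%, 2.14% and 1.39% of all tested genes passed that stricter rule in the 3 comparisons in the order given. The median log2 fold change of the 10 genes was -0.0073, -0.015 and -0.063 in that order, and that of all tested genes was 0.0, -0.0061 and -0.020. The comparisons share libraries and are not independent of each other.

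**Figure D2:**
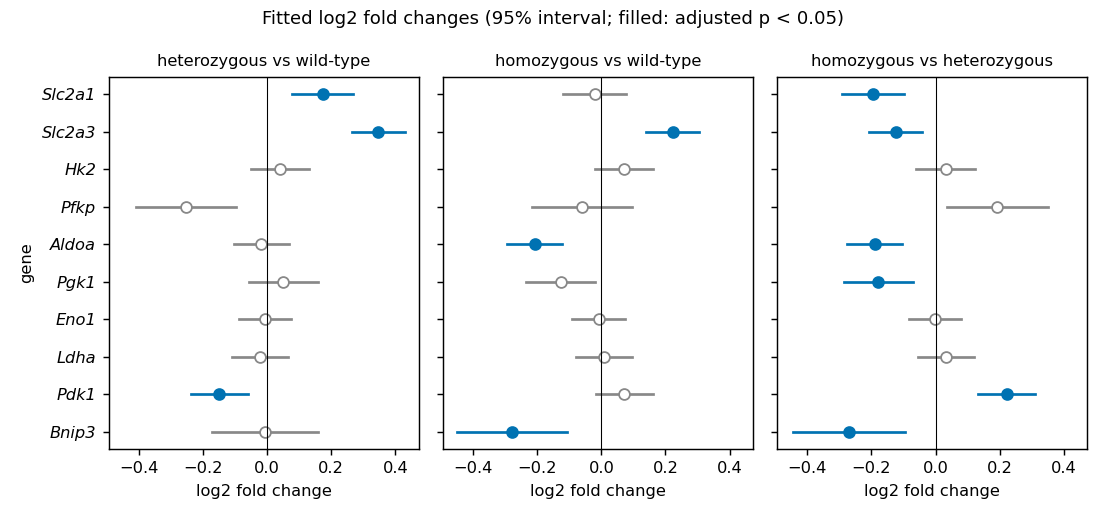
Fitted log2 fold changes of the 10 genes in the 3 comparisons, with 95% intervals; filled points passed an adjusted p of 0.05. *Slc2a3* stands furthest to the right in both deletions against WT, and 5 of the 6 filled points of the homozygous against heterozygous panel lie left of 0.

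*Slc2a3* encodes GLUT3, a glucose transporter of high affinity, and lies on chromosome 6 (122727809 to 122801640, minus strand, GRCm38). It was at 424 and 426 CPM in WT, 532 and 549 in heterozygous and at 493 and 499 in homozygous libraries. The 3 genotypes did not overlap, with WT lowest and heterozygous highest. *Slc2a3* rose by 27.2% in heterozygous cells (log2 fold change 0.35, SE 0.0395, adjusted p = 1.19e-05). It rose by 16.7% in homozygous cells (0.22, SE 0.0395, adjusted p = 0.000327). Both calls held in every alternative fit and with each library left out, and are the steadiest among the 10 genes together with those of *Aldoa* against WT and *Pdk1* between the deletions.

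*Slc2a1* encodes GLUT1, the transporter for basal glucose uptake, and lies on chromosome 4 (119108711 to 119137983, plus strand). It was at 268 and 275 CPM in WT, 317 and 295 in heterozygous and at 276 and 259 in homozygous libraries. The heterozygous libraries lay above all others, and homozygous and WT libraries overlapped. *Slc2a1* rose by 12.7% in heterozygous cells (0.17, SE 0.0461, adjusted p = 0.032). In homozygous cells the difference from WT was -0.021 (95% interval -0.12 to 0.076, adjusted p = 0.801). The heterozygous call was lost with DESeq2 (adjusted p = 0.0654) and without WT replicate 1 (0.264), WT replicate 2 (0.154) or heterozygous replicate 1 (0.327).

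Between the deletions, *Slc2a1* fell by 0.19 on the log2 scale in homozygous against heterozygous cells (adjusted p = 0.00404) and *Slc2a3* fell by 0.12 (adjusted p = 0.025). The first call was lost without heterozygous replicate 1 (adjusted p = 0.0938). The second was lost with DESeq2 (0.0523), with only the libraries compared (0.0558) and without WT replicate 2 (0.0647), heterozygous replicate 1 (0.0583), heterozygous replicate 2 (0.198) or homozygous replicate 1 (0.1). The summed level of both transporters was 135 and 137 FPKM in WT, 164 and 160 in heterozygous and at 147 and 143 in homozygous libraries. The share of *Slc2a3* in that sum was 43.1% ± 0.356 in WT, 46.1% ± 1.82 in heterozygous and 47.3% ± 1.31 in homozygous cells (SD, n = 2), with both deletions above WT and overlapping each other.

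**Figure D3:**
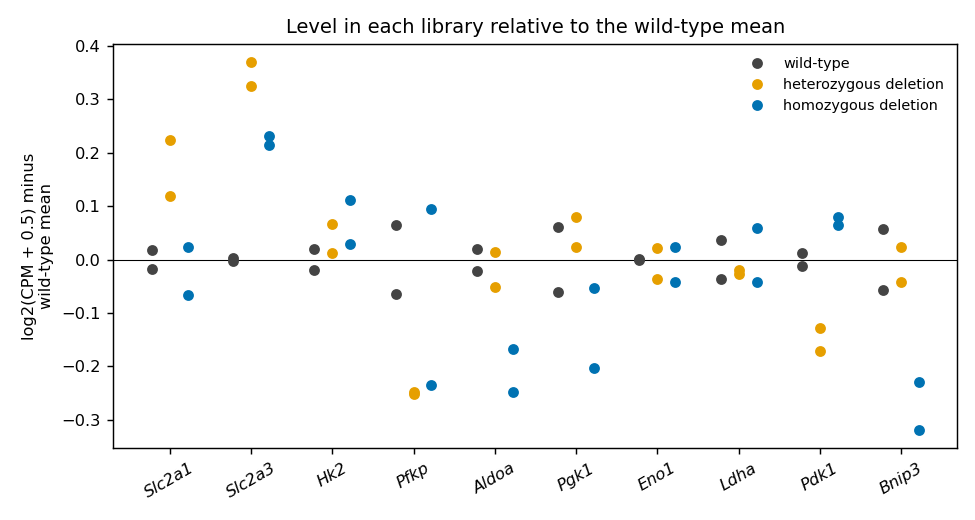
Level of each gene in each library as log2(CPM + 0.5) minus the WT mean. Both heterozygous and both homozygous libraries lie above WT for *Slc2a3*, while for *Pdk1* the heterozygous libraries lie below and the homozygous above WT.

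*Hk2* encodes the hexokinase bound to mitochondria that is raised by low oxygen (chromosome 6, 82725025 to 82774454, minus strand). Its 6 libraries lay between 273 and 300 CPM. Its difference was 0.071 in homozygous against WT cells (95% interval -0.020 to 0.16, adjusted p = 0.282) and 0.039 in heterozygous against WT cells (-0.052 to 0.13, adjusted p = 0.735). It did not pass the test, and both homozygous libraries lay above both WT libraries.

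*Pfkp* encodes the platelet type of phosphofructokinase, the committed step of glycolysis, and lies on chromosome 13 (6579768 to 6648777, minus strand). It was at 81.2 and 74.2 CPM in WT, 65.3 and 65.1 in heterozygous and at 65.8 and 82.9 in homozygous libraries. The heterozygous libraries agreed closely and lay below WT, while the homozygous libraries were far apart and spanned the WT range. The difference of heterozygous from WT cells was -0.25 (SE 0.0748, adjusted p = 0.0562). That value passed the threshold in 3 of 8 alternative fits, with DESeq2 size factors (adjusted p = 0.0428), without a filter on low counts (0.00022) or with only the libraries compared (0.000745). In the other fits it did not pass, with an adjusted p of up to 0.495. With each library left out the difference ran from -0.32 to -0.19. In homozygous against WT cells the difference was -0.061 (adjusted p = 0.624). It was -0.24 without homozygous replicate 2, and without homozygous replicate 1 the sign turned (0.10). Between the deletions the difference was 0.19 (adjusted p = 0.0689), 0.35 without homozygous replicate 1 (adjusted p = 3.46e-05) and 0.014 without homozygous replicate 2 (adjusted p = 0.901). It passed with DESeq2 size factors (adjusted p = 0.0489), without a filter on low counts (0.00671) and with only the libraries compared (0.0413).

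*Aldoa* encodes aldolase A (chromosome 7, 126795234 to 126800751, minus strand). It was at 1384 and 1424 CPM in WT, 1417 and 1355 in heterozygous and at 1249 and 1182 in homozygous libraries. The homozygous libraries lay below all others, and WT and heterozygous libraries overlapped. *Aldoa* fell by 0.21 on the log2 scale in homozygous against WT cells (SE 0.0411, adjusted p = 0.000929), a level 13.4% lower. Its difference in heterozygous against WT cells was -0.018 (95% interval -0.10 to 0.068, adjusted p = 0.886). Against heterozygous cells it fell by 0.19 (adjusted p = 0.00191), a call that was lost without heterozygous replicate 1 (0.0544).

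*Pgk1* encodes phosphoglycerate kinase and lies on the X chromosome (106187100 to 106203699, plus strand). It was at 309 and 337 CPM in WT, 328 and 341 in heterozygous and at 311 and 280 in homozygous libraries. The homozygous libraries lay below the heterozygous ones and overlapped WT. *Pgk1* fell by 0.18 on the log2 scale in homozygous against heterozygous cells (SE 0.0515, adjusted p = 0.0151), and this call was lost without heterozygous replicate 2 (-0.15, adjusted p = 0.126) or homozygous replicate 2 (-0.10, adjusted p = 0.144). The difference of homozygous from WT cells was -0.13 (adjusted p = 0.0885). It passed with total counts only (0.00881), without a filter on low counts (0.0126) and without homozygous replicate 1 (-0.19, adjusted p = 0.00605). With each library left out it ran from -0.19 to -0.053, the value without homozygous replicate 2.

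*Eno1* (chromosome 4, 150236721 to 150248879, plus strand) and *Ldha* (chromosome 7, 46841475 to 46855627, plus strand) passed the test in no comparison, although their counts were the highest and among the highest. *Eno1* lay between 2077 and 2174 CPM in the 6 libraries and *Ldha* between 1353 and 1451 CPM. For *Eno1* the difference was -0.0086 in homozygous (95% interval -0.090 to 0.073) and -0.0073 in heterozygous against WT cells (-0.089 to 0.074). For *Ldha* it was 0.0092 (-0.079 to 0.097) and -0.023 (-0.11 to 0.065). These intervals hold differences of up to about 0.1 on the log2 scale, so smaller changes were not detectable with 2 libraries per genotype.

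*Pdk1*, on chromosome 2 (71873224 to 71903858, plus strand), lay below WT in heterozygous and above WT in homozygous libraries. It was at 168 and 171 CPM in WT, 155 and 150 in heterozygous and at 179 and 177 in homozygous libraries. None of the 3 genotypes overlapped. *Pdk1* fell by 0.15 on the log2 scale in heterozygous against WT cells (SE 0.0427, adjusted p = 0.0469), and its difference in homozygous against WT cells was 0.072 (95% interval -0.017 to 0.16, adjusted p = 0.257). Between the deletions it rose by 16.6% in homozygous against heterozygous cells (0.22, SE 0.0428, adjusted p = 0.00065), in every alternative fit and with each library left out. The heterozygous call was lost with DESeq2 (0.0693), with total counts only (0.0548) and without either WT replicate (0.187 and 0.336) or either heterozygous replicate (0.102 and 0.358).

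*Bnip3* (chromosome 7, 138890836 to 138909519, minus strand) was the least counted of the 10 genes, with 341 to 527 counts per library. It was at 17.9 and 19.5 CPM in WT, 18.1 and 19.0 in heterozygous and at 14.9 and 15.9 in homozygous libraries. The homozygous libraries lay below all others. *Bnip3* fell by 0.28 on the log2 scale in homozygous against WT cells (SE 0.0823, adjusted p = 0.0198) and by 0.27 against heterozygous cells (SE 0.0830, adjusted p = 0.0214). The first call was lost with DESeq2 (0.115) and without WT replicate 2 (0.202) or homozygous replicate 1 (0.122), and the second with DESeq2 (0.126) and without heterozygous replicate 2 (0.131) or homozygous replicate 1 (0.129).

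Beside these values, fibroblast markers fell in both deletions, 23 of 26 tested in homozygous and 20 of 26 in heterozygous against WT cells. Their median log2 fold changes were -1.08 and -0.49. Of all tested genes, 10.5% and 2.91% fell. *Aldoa* and *Bnip3* fell in homozygous against WT cells, whose libraries had the lowest fibroblast sum. In the order of the genotype means, the heterozygous cells were highest for *Slc2a3*, *Slc2a1* and *Pgk1* and lowest for *Pdk1*, *Pfkp* and *Ldha*. For *Ldha* the libraries of all genotypes overlapped, and for *Pgk1* those of heterozygous and WT cells. The heterozygous cells lay between the others for the fibroblast sum. Whether feeder RNA had a part in any of these differences was not tested.

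Counted without a test, 4 of the 10 genes had libraries that did not overlap between heterozygous and WT cells, 5 between homozygous and WT cells and 7 between the deletions. The shares over all tested genes were 47.7%, 57.9% and 61.4%. The 10 genes did not move as one group over the 6 libraries. Pearson's r between 2 of them, a description over libraries that share their genotypes, ran from -0.807 for *Slc2a1* and *Pdk1* to 0.845 for *Aldoa* and *Bnip3*. Their mean log2 level stayed within -0.034 and 0.024 of the WT mean in every library. Genes most like that mean over the 6 libraries, among 9189 with at least 10 CPM, were *Tgoln1* (r = 0.996), *Rab34* (0.989), *Flot1* (0.989), *Ube2h* (0.988) and *Ssr4* (0.983). They were picked for the highest r over 6 libraries. The 10 genes themselves had r with their mean from -0.779 (*Pdk1*) to 0.881 (*Aldoa*), so a match to the mean does not describe each of them.

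For each enzymatic step, the share of the listed gene in the summed FPKM of its isozymes was computed per library, with no test. *Aldoa* made up 99.4% of aldolase, *Hk2* 91.7% and *Eno1* 91.8% of hexokinase and enolase transcripts, and *Ldha* 88.5% of lactate dehydrogenase transcripts in WT cells. The enolase sum held *Eno1*, *Eno2* and *Eno3* and left out the retrocopy *Eno1b* (4451 to 5850 counts per library), so the share of *Eno1* depends on that choice. *Pdk1* made up 56.8% of the pyruvate dehydrogenase kinases. *Pfkp* was the smallest of the phosphofructokinase subunits at 8.84%, beside 63.3% for *Pfkl* and 27.9% for *Pfkm*.

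The partners of *Ldha* and *Hk2* fell in homozygous against WT cells. *Ldhb*, the heart-type subunit that favours pyruvate, was at 84.8 and 86.9 CPM in WT, 82.2 and 80.8 in heterozygous and at 64.4 and 60.4 in homozygous libraries. It fell by 0.46 on the log2 scale in homozygous against WT cells (SE 0.0506, adjusted p = 1.04e-06), and its share of lactate dehydrogenase went from 11.5% ± 0.190 in WT to 11.1% ± 0.0885 in heterozygous and 8.58% ± 0.0304 in homozygous cells (SD, n = 2). *Hk1*, the general hexokinase, fell by 0.41 in homozygous against WT cells (SE 0.0683, adjusted p = 0.000176). Its share went from 8.33% ± 0.130 through 7.30% ± 0.342 to 6.13% ± 0.218 (SD, n = 2), with no overlap between genotypes. *Ldha* and *Hk2* took a larger share of their step while their own levels did not pass the test.

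**Figure D4:**
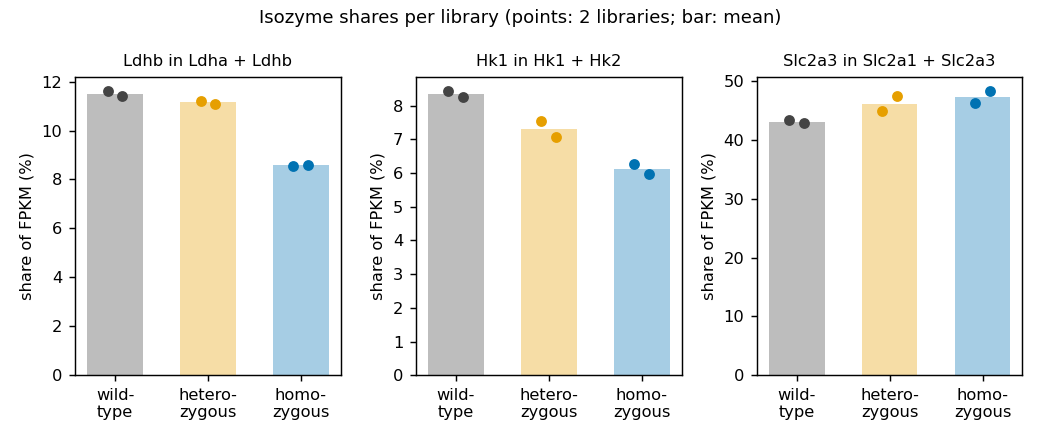
Share (%) in summed FPKM of *Ldhb* in *Ldha* and *Ldhb*, of *Hk1* in *Hk1* and *Hk2* and of the transporter *Slc2a3* in *Slc2a1* and *Slc2a3*. Points are the 2 libraries of a genotype and bars their mean. *Ldhb* goes from 11.5% to 8.58% and *Hk1* from 8.33% to 6.13% between WT and homozygous cells.

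Among 17 other glycolysis enzymes, 6 fell and none rose in homozygous against WT cells, with a median of -0.056 (all tested genes -0.0061). These falls were 35.3% of the list, beside 10.5% of all tested genes that fell. In either direction 21.4% of all tested genes passed, and 28.9% of those with at least 10 CPM. Besides *Ldhb* and *Hk1* the 6 falls included *Gpi1*, which interconverts the hexose phosphates (-0.17, adjusted p = 0.00309). They also included *Aldoc*, the brain aldolase (-0.36, adjusted p = 0.0233). The abundant *Gapdh* (0.037, adjusted p = 0.575) and *Pkm*, pyruvate kinase (-0.035, adjusted p = 0.597), did not pass the test. In heterozygous against WT cells 1 of the 17 rose (5.88%, beside 5.14% of all tested genes that passed) and none fell. That gene, named after its value was seen, was *Pfkfb3*, which makes the activator of phosphofructokinase (0.36, adjusted p = 0.000333).

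Among other sugar and lactate transporters, 1 of the 10 tested rose and 2 fell in homozygous against WT cells, and none of 10 passed in heterozygous cells. These counts stand beside 21.4% of all tested genes that passed in homozygous and 5.14% in heterozygous against WT cells. *Slc16a3*, the lactate exporter MCT4, was at 87.9 and 87.4 CPM in WT, 89.9 and 86.2 in heterozygous and at 112 and 105 in homozygous libraries, and rose by 0.31 on the log2 scale in homozygous cells (SE 0.0486, adjusted p = 9.8e-05). *Slc2a8* (-0.32, adjusted p = 0.0454) and *Slc2a10* (-0.72, adjusted p = 0.0465), both below 10 CPM, fell.

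Of 35 other hypoxia-responsive genes, 5 rose and 8 fell in homozygous against WT cells and 2 rose and 6 fell in heterozygous against WT cells. The medians were -0.056 and -0.017. These calls were 37.1% and 22.9% of the list, beside 21.4% and 5.14% of all tested genes. Among the falls was *Lox*, which cross-links collagen (-1.37 in homozygous and -0.55 in heterozygous cells, adjusted p = 5.16e-14 and 8.01e-08). It is known to be made by fibroblasts, and it moved with the fibroblast marker sum. *Hmox1*, heme oxygenase, rose in homozygous (0.36, adjusted p = 4.62e-06) and fell in heterozygous cells (-0.24, adjusted p = 0.00238). It lies on chromosome 8, whose median gene moved in the same directions.

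Among 12 regulators of the HIF pathway, 2 rose and none fell in homozygous against WT cells. These calls were 16.7% of the list, below the 21.4% of all tested genes. *Hif1a*, the oxygen-regulated subunit, was at 162 and 161 CPM in WT, 164 and 167 in heterozygous and at 190 and 184 in homozygous libraries, and rose by 0.22 on the log2 scale in homozygous cells (SE 0.0427, adjusted p = 0.000887). *Arnt2*, a partner subunit, rose by 0.44 (SE 0.0839, adjusted p = 0.000637). *Cul2*, part of the ligase that degrades HIF, did not pass (0.12, adjusted p = 0.0837). In heterozygous cells 1 of 12 fell, named here after its value was seen: *Egln2*, a HIF hydroxylase (-0.25, adjusted p = 0.019). That was 8.33% of the list, beside 5.14% of all tested genes. Transcript levels do not show the amount of HIF protein, which is set mainly by its breakdown.

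**Figure D5:**
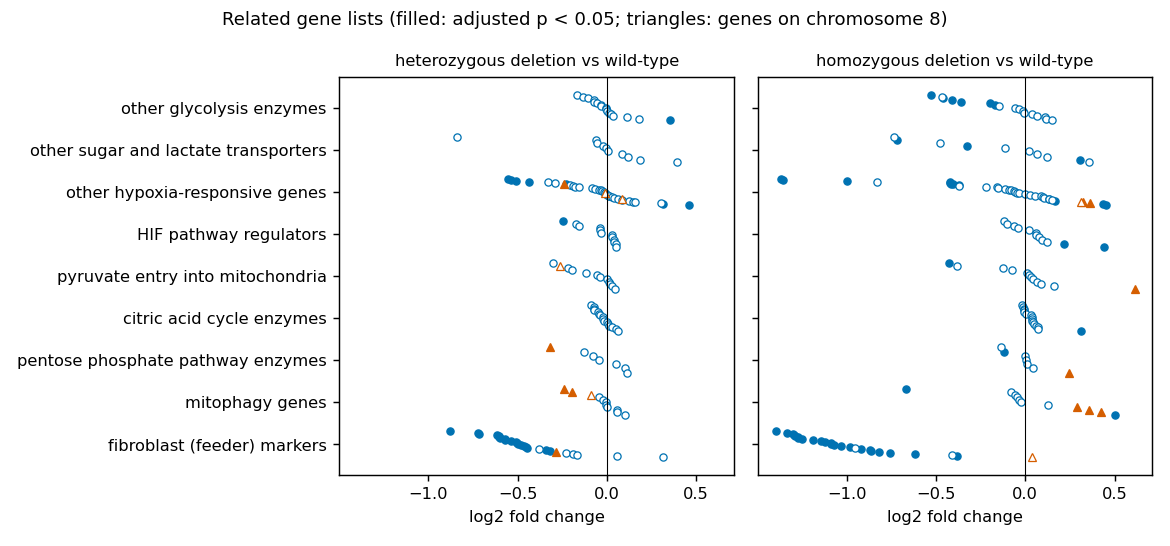
Fitted log2 fold change of each gene of the related lists, in heterozygous (left) and homozygous (right) against WT cells; filled symbols passed an adjusted p of 0.05 and triangles are genes on chromosome 8. Of the 26 fibroblast markers, 24 in the left and 25 in the right panel lie left of 0, with medians of -0.49 and -1.08, and 7 of the filled symbols right of 0 in the homozygous panel are on chromosome 8.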

How the data were processed

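RNA of WT mESCs and of mESCs with a heterozygous or homozygous *Wnt6* deletion was sequenced from stranded poly(A) libraries. The table the authors deposited holds whole-number read counts of each gene without normalization. The submitters' processing notes name Trimmomatic 0.39, STAR 2.6.1d, SAMtools 1.9, featureCounts 1.6.4, DESeq2 1.22.2 and GRCm38; the annotation release and the strand setting of the counting are not given in the sources used here. Positions and exon lengths came from GENCODE M21, in which 55144 of 55385 identifiers were found.

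Genotypes and replicate numbers came from the sample titles. The 16951 genes that reached 10 counts in 2 or more libraries were scaled with TMM and fitted in one edgeR 4.0.16 quasi-likelihood model of 3 genotypes (R 4.3.3), with Benjamini-Hochberg adjustment over all tested genes. A gene rose or fell at an adjusted p below 0.05; the stricter rule also asks for an absolute log2 fold change above 1. In the libraries 3 counts correspond to 0.102 to 0.131 CPM. The script was tested on simulated counts.

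The 10 genes and the lists were chosen with earlier results of these data known. Named genes are the 10, their isozyme partners, *Hif1a*, *Gapdh*, *Pkm*, *Gpi1* and *Wnt6*, from each other list the 3 genes of smallest p in homozygous against WT cells, and the 5 genes outside every list, with a mean of at least 10 CPM, whose pattern correlates best with the mean of the 10. One gene that this rule names is not reported here. Results were recomputed with DESeq2 1.42.0, with edgeR on DESeq2 size factors, with total counts, 2 other filters, only the libraries compared, a replicate block, robust estimation, longest transcripts and each library left out. Samples with the same replicate number did not deviate together in all pairs (r = 0.0792, -0.291 and 0.069 over 9325 genes).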

Additional observations from a re-analysis of the deposited data

How the results depend on the processing

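With each library left out, its lone partner is assumed to vary like the other genotypes, and 2 libraries per genotype limit every test. The number of the 10 genes past the threshold kept within 1.5 times its value except as follows. With an absolute log2 fold change above 1 it was 0 in all 3 comparisons. In heterozygous against WT cells it was 1 with DESeq2, and 1 to 4 with a library left out (1 without WT replicate 1, WT replicate 2 or heterozygous replicate 1). In homozygous against heterozygous cells it was 3 to 6 with a library left out (3 without either heterozygous replicate). Among all genes, 362, 28 and 236 passed the stricter rule and 2265, 482 and 2761 passed with DESeq2, in homozygous against WT, heterozygous against WT and homozygous against heterozygous cells; the counts with a library left out ran from 2148 to 3618, from 352 to 1306 and from 2908 to 4357. The lowest came without WT replicate 1, WT replicate 2 and heterozygous replicate 1, and further low counts were 2330 in homozygous against WT cells without WT replicate 2, and 414 and 355 in heterozygous against WT cells without WT replicate 1 and heterozygous replicate 2. The cause was not tested.

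With total counts as the only scaling, higher calls made up 31.9% in place of 50.8% in homozygous against WT cells and 29.4% in place of 50.1% in homozygous against heterozygous cells, as the median gene shifted by -0.057 and -0.067. The replicate block, on numbers that do not pair the samples, gave 3447, 816 and 4150 genes and 3, 2 and 6 of the 10 genes in the same order, and *Pdk1* in heterozygous cells then missed the threshold (adjusted p = 0.0708). The pairing crossed in homozygous against WT cells, added after the data were seen, gave 3750 genes and 4 of the 10.

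Signs turned only for values that did not pass the test. With total counts they were -0.048 for *Ldha* and -0.020 for *Gapdh* in homozygous against WT, 0.0029 for *Eno1* and 0.0026 for *Bnip3* in heterozygous against WT, and -0.036 for *Hk2* and -0.035 for *Ldha* in homozygous against heterozygous cells, where *Eno1* was at 0.012 with DESeq2 and with its size factors and at 0.0073 with only the libraries compared. With a library left out, in homozygous against WT cells *Pfkp* ran from -0.24 to 0.10, *Ldha* from -0.033 to 0.059, the second *Aldoa* model from -0.43 to 0.018, *Slc2a1* from -0.058 to 0.024, *Eno1* from -0.033 to 0.024, *Pfkm* from -0.033 to 0.017 and *Pkm* from -0.066 to 0.0044. In heterozygous against WT cells *Pgk1* ran from -0.0095 to 0.11, *Aldoa* from -0.051 to 0.014, *Ldha* from -0.060 to 0.014, *Bnip3* from -0.067 to 0.051, the second *Aldoa* model from -0.026 to 0.33 and *Eno1* from -0.037 to 0.022. In homozygous against heterozygous cells *Eno1* ran from -0.031 to 0.031, *Ldha* from -0.010 to 0.082 and *Hk2* from -0.011 to 0.080. Of the other alternative fold changes of the 10 genes, 361 kept their sign and side of the threshold, 27 fell short of it and 14 newly passed it.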

Other observations

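Enzymes downstream of pyruvate moved in few cases. In homozygous against WT cells, 1 of 12 genes for the entry of pyruvate into mitochondria or for pyruvate dehydrogenase and its control rose and 1 fell. These calls were 16.7% of the list, and the call among citric acid cycle enzymes below was 6.25%, beside 21.4% of all tested genes. *Pdp2*, the phosphatase that reactivates pyruvate dehydrogenase, rose by 0.61 on the log2 scale (SE 0.0761, adjusted p = 5.37e-06) and *Pdk4*, a kinase of the same complex, fell by 0.43 (SE 0.139, adjusted p = 0.0337), while *Pdk3* was at 0.16 (adjusted p = 0.063). Of 16 citric acid cycle enzymes, 1 rose and none fell: *Suclg2*, a subunit of succinyl-CoA ligase, was at 83.4 and 85.1 CPM in WT, 81.1 and 81.6 in heterozygous and at 105 and 104 in homozygous libraries (0.31, SE 0.0457, adjusted p = 4.39e-05). *Idh3a* (0.071, adjusted p = 0.271) and *Ogdh* (0.069, adjusted p = 0.282) did not pass. In heterozygous against WT cells no gene of either list passed.

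Of 7 pentose phosphate pathway enzymes, 1 rose and 1 fell in homozygous against WT cells, *Pgls* (0.25, adjusted p = 0.013) and *Pgd* (-0.12, adjusted p = 0.0459), while *Rpia* was at -0.14 (adjusted p = 0.318). Of 11 mitophagy genes, 4 rose and 1 fell in homozygous against WT cells, with a median of -0.026 and values from -0.67 to 0.50. These calls were 45.5% of the list, and those of the pentose phosphate enzymes 28.6% of theirs, beside 21.4% of all tested genes. The 3 mitophagy genes of smallest p all rose: *Fkbp8* (0.42, adjusted p = 3.96e-06), *Gabarapl2* (0.36, adjusted p = 0.000136) and *Map1lc3b* (0.29, adjusted p = 9.83e-05). They code for an autophagy receptor and for proteins of the autophagosome membrane. *Pgls*, *Fkbp8* and *Map1lc3b* fell in heterozygous against WT cells. *Pdp2*, *Pgls*, *Fkbp8*, *Gabarapl2* and *Map1lc3b* lie on chromosome 8. Of the 15 genes of the related lists that rose in homozygous against WT cells, 7 lie there, where the lists have 8 tested genes, and 8 are among the 112 on other chromosomes.

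Of 10 pluripotency markers, 6 fell in heterozygous against WT cells and 1 rose and 1 fell in homozygous against WT cells, *Zfp42* (0.22, adjusted p = 0.00114) and *Klf4* (-0.19, adjusted p = 0.0456), while *Tdgf1* was at 0.067 (adjusted p = 0.261). *Zfp42* lies on chromosome 8, at 128 and 128 CPM in WT, 104 and 102 in heterozygous and 152 and 145 CPM in homozygous libraries. Of 9 tested early differentiation markers, 3 rose and 1 fell in homozygous against WT cells. These calls were 44.4% of the list, beside 21.4% of all tested genes. The neural genes *Sox1* (1.39, adjusted p = 6.53e-07) and *Pax6* (0.92, adjusted p = 4.18e-07) rose and the mesoderm gene *T* fell (-0.71, adjusted p = 0.00651). *Sox1* also lies on chromosome 8, and the part of that chromosome in these differences was not tested. Among the fibroblast markers *Col5a2* (-1.25), *Col1a2* (-1.28) and *Acta2* (-1.15) fell in homozygous cells (adjusted p = 2.25e-13, 3.34e-13 and 5.69e-13).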
